A study of Mus musculus with 10 samples.

Results

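The NuRD complex was described here through 10 genes that encode its subunits: Chd3 and Chd4, Mta1 and Mta2, Mbd2 and Mbd3, Gatad2a and Gatad2b, and Hdac1 and Hdac2. They were taken by gene symbol from the annotation of the array, where 24 probe sets of 45037 carried one of these symbols, and the 10 genes were among 18193 genes with a probe set of their own. The samples were 3T3-L1 cells, a mouse preadipocyte line that hormones can turn into fat cells, transfected with 60 nM of an siRNA against Lsd1 (siLsd1) or of a scrambled control siRNA (siC). RNA was taken at 24 h from cells of passage 19 (2 siLsd1 and 2 siC arrays) and at 48 h from cells of passage 21 (3 siLsd1 and 3 siC arrays), with no change of medium. The labels state no treatment besides the transfection, no other siRNA against Lsd1 was among these samples, and the knock-down was partial, so the arrays describe reduced and not absent Lsd1 in one cell line. The labels call the arrays biological replicates without saying that they came from separate cultures, and p-values can speak only of the spread among these arrays.

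NuRD, the nucleosome remodelling and deacetylase complex, combines an ATP-driven engine that slides nucleosomes with an enzyme that strips acetyl groups from histones. CHD3 or CHD4 supplies the ATPase, HDAC1 and HDAC2 the deacetylase, MTA proteins the scaffold on which the deacetylases sit, and MBD2 or MBD3, never both in one complex, the link to DNA. GATAD2A and GATAD2B (p66 alpha and beta) bridge the MBD protein to the ATPase. LSD1, the histone demethylase encoded by Kdm1a, has been found in association with NuRD in human cells and otherwise acts with the CoREST corepressor, which also carries HDAC1 and HDAC2.

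Each value is a probe set intensity in linear units as deposited, and a gene is represented by its brightest probe set. Levels of different probe sets are not comparable, so genes are compared only through their changes. The median intensity per array was 35.6 to 40.6 units. Kdm1a, the target of the siRNA, had 1001 and 971 units in siLsd1 cells at 24 h, against 1559 and 1621 units in siC cells, and 1352, 1336 and 897 units in siLsd1 cells at 48 h, against 1596, 1787 and 1775 units in siC cells. It fell at both times, with log2 changes of -0.69 (SE 0.17, limma adjusted p = 0.0473) at 24 h and -0.55 (SE 0.14, adjusted p = 0.0338) at 48 h, and its second probe set fell at both times as well (-0.83 and -0.65). For the mean of both times its change was -0.62 (adjusted p = 0.00481), a call that held without each of the 10 arrays in turn, while the calls at 24 h and at 48 h were each lost in 7 of 10 such omissions (adjusted p = 0.0662 to 0.252 and 0.0562 to 0.115). Its change at 48 h was -0.35 (adjusted p = 0.00277) without siLsd1 replicate 3. Array 3 of the siLsd1 group at 48 h stood apart from its replicates: the SD of the log2 difference over 6943 brighter genes was 0.441 and 0.439 against the other two arrays of its group, while the other pairs of same-group arrays gave 0.0892 to 0.205. It also had the lowest Kdm1a of the 10 arrays on the brightest probe set, and results are given with and without it where they move. All 10 fibroblast and preadipocyte markers that the annotation names were above the dimmest 25% of genes, whereas Lep, Cidec and Retn of mature adipocytes and Ptprc of leukocytes were not. The summed preadipocyte markers were 61759 to 61813 units in siLsd1 and 69245 to 70826 units in siC cells at 24 h, and 50727 to 68020 units in siLsd1 and 73335 to 74406 units in siC cells at 48 h. The summed mature adipocyte markers (5 on the array, 2 of them above the dim level, mostly Fabp4) were 1385 to 1687 units in siLsd1 and 3568 to 3651 units in siC cells at 24 h, and 1443 to 3073 units in siLsd1 and 4648 to 5401 units in siC cells at 48 h. Of the macrophage markers 4 of 5 were above the dim level, with sums of 469 to 527 units in siLsd1 and 533 to 543 units in siC cells at 24 h, and 381 to 419 units in siLsd1 and 379 to 423 units in siC cells at 48 h. Of the skeletal muscle markers 2 of 3 were above it, with sums of 272 to 324 units in siLsd1 and 157 to 222 units in siC cells at 24 h, and 153 to 215 units in siLsd1 and 138 to 197 units in siC cells at 48 h. Of the endothelial and epithelial markers 1 of 4 each was above it, and their sums were at most 91.6 units on any array. The siLsd1 and siC ranges lay apart for the preadipocyte and adipocyte sums at both times, and for the macrophage and muscle sums at 24 h. Of all single genes tested, 61.4% lay apart in this way at 24 h and 37.5% at 48 h. Such sums add unlike probe sets, so the brightest markers weigh most. What part the markers had in the results that follow was not tested. In such bulk RNA, fewer cells of a type and less RNA per cell cannot be told apart.

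With the siRNA against Lsd1, the subunit genes moved in both directions and by small amounts. Averaged over both times and read on the brightest probe sets, Mbd2 and Gatad2a rose while Chd3, Chd4 and Gatad2b fell, all by less than 1.4-fold. Mta1, Mta2, Mbd3, Hdac1 and Hdac2 did not pass the test. With a gene's probe sets averaged, Chd4, Gatad2a and Gatad2b were not called either. All 10 genes were bright enough to be tested. At 24 h 2 of 10 were called at an adjusted p under 0.05, with Mbd2 higher and Chd4 lower, where 5.39% of all 13644 genes tested were called (2.60% higher and 2.79% lower). At 48 h 2 of 10 were called, with Gatad2a higher and Gatad2b lower, against 12.7% of all genes (6.00% higher and 6.67% lower). For the mean of both times 5 of 10 were called, against 23.8% of all genes: 2 were higher, where 10.1% of all genes were called higher, and 3 were lower, where 13.7% were called lower. The 10 genes had a median log2 change of -0.13 at 24 h, 0.0011 at 48 h and -0.07 averaged over the times, against -0.02, -0.02 and -0.02 over all genes tested. Without array 3 of the siLsd1 group at 48 h, 6, 3 and 6 of the 10 genes were called in the 24 h, 48 h and mean comparisons, where 25.5%, 18.1% and 33.8% of all genes were.

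The arrays of siLsd1 and siC cells did not overlap for 7 of 10 genes at 24 h, where 61.4% of all genes did not, and for 5 of 10 at 48 h, where 37.5% of all genes did not. For 5 of 10 genes the groups lay apart at both times and in the same direction, against 27.6% of all genes. These were the 5 genes called for the mean, which reads the same values and so gives no separate support. No gene was called for a difference between the siLsd1 changes at 48 h and 24 h (0 of 10 genes, and 0 of 13644 by limma, of which 896 had an unadjusted p under 0.05). Chd4, with 0.32 log2 units, was the only one of the 10 genes under 0.05 there before adjustment (limma adjusted p = 0.729).

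**Figure D1:**
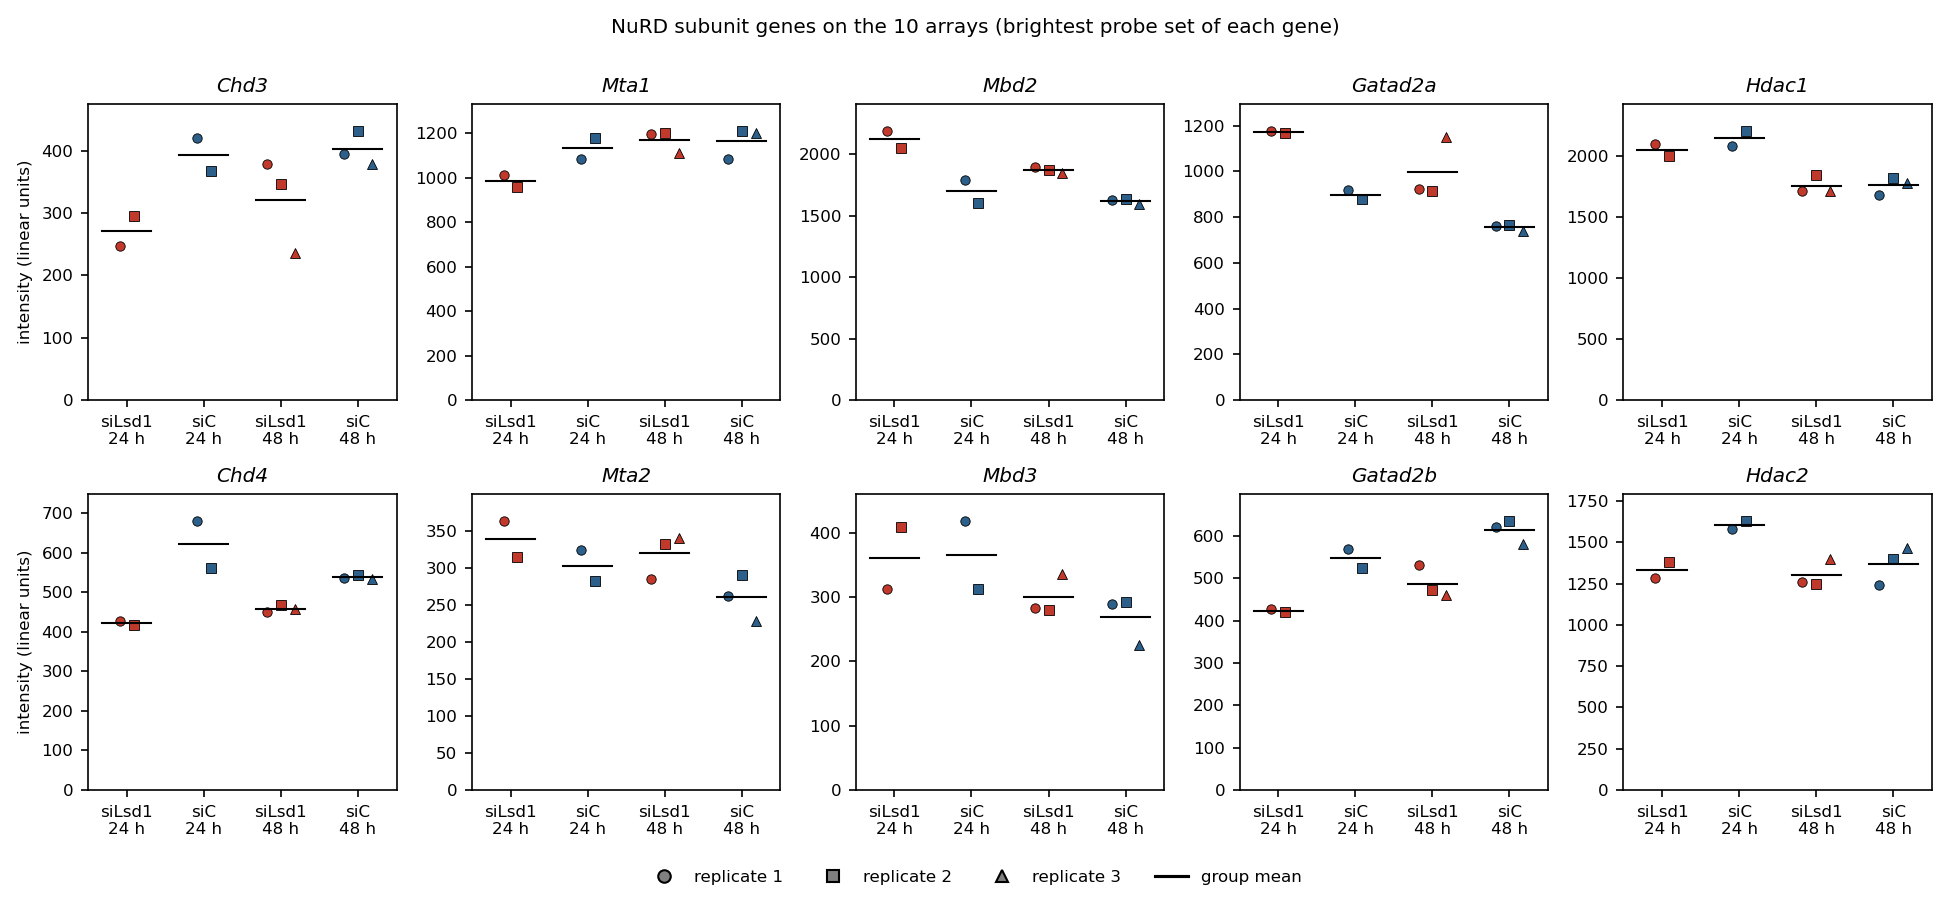
Intensity (linear units, y axis) of the brightest probe set of each of the 10 genes on the 10 arrays, by siRNA and time (x axis). Points are arrays with a shape for each replicate number and bars are group means. The siLsd1 arrays lie above the siC arrays at both times for Mbd2 and Gatad2a and below them for Chd3, Chd4 and Gatad2b.

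**Figure D2:**
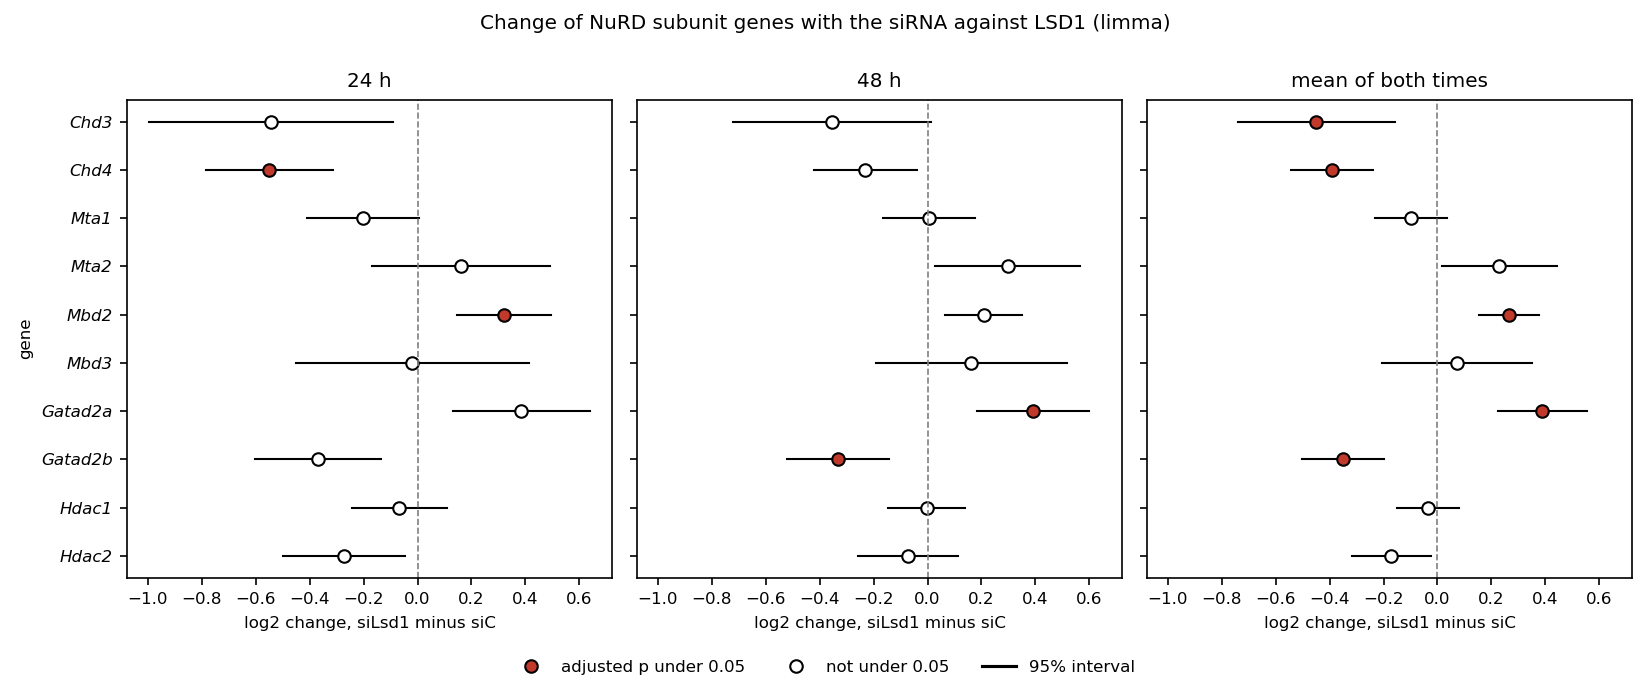
Log2 change with siLsd1 relative to siC (x axis) for the 10 genes (y axis), in a panel each for 24 h, 48 h and their mean, with 95% intervals from limma. Filled points passed an adjusted p of 0.05, which were 2, 2 and 5 genes in the 3 panels.

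Of the ATPases, Chd4 was read by 3 probe sets and Chd3 by 1. CHD4 (Mi-2 beta) is the remodelling enzyme of most NuRD complexes in many cell types. Its brightest probe set, 1451295_a_at, had 429 and 417 units in siLsd1 cells at 24 h, against 681 and 563 units in siC cells, and 451, 467 and 458 units in siLsd1 cells at 48 h, against 536, 545 and 534 units in siC cells. Every siLsd1 array was below every siC array of its time. Chd4 fell by 0.55 log2 units at 24 h (SE 0.11, 1.46-fold lower, limma adjusted p = 0.0192) and by 0.39 for the mean of both times (SE 0.07, 1.31-fold lower, adjusted p = 0.00420). At 48 h its change was -0.23 (SE 0.09, adjusted p = 0.0999). The call for the mean held without each of the 10 arrays in turn. The call at 24 h was lost without siC replicate 1 of that time (-0.41, adjusted p = 0.152) and without siLsd1 replicate 1 (adjusted p = 0.143) or replicate 2 (adjusted p = 0.126). In each of these fits the lone array of its group is assumed to vary like the other groups.

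The remaining Chd4 probe sets were not called in any comparison of siLsd1 with siC, and their arrays spread more widely within groups. Probe set 1436343_at had 336 and 305 units in siLsd1 cells at 24 h, against 552 and 223 units in siC cells, and 347, 285 and 106 units in siLsd1 cells at 48 h, against 458, 518 and 168 units in siC cells. Probe set 1438476_a_at had 189.8 and 166 units in siLsd1 cells at 24 h, against 262 and 113 units in siC cells, and 209.7, 161 and 82.9 units in siLsd1 cells at 48 h, against 276, 348 and 87.5 units in siC cells. In both, the same 3 arrays were low in their groups: siC replicate 2 at 24 h, siC replicate 3 at 48 h and siLsd1 replicate 3 at 48 h. The brightest probe set showed no such dip on the arrays at 48 h. The changes for the mean of both times were -0.39 (SE 0.42, limma adjusted p over all probe sets = 0.584) and -0.24 (SE 0.41, adjusted p = 0.740). Both had the direction of the brightest probe set, with SEs too wide to tell a fall from no change. With all 3 probe sets averaged Chd4 was no longer called (-0.34, adjusted p = 0.469). Which probe set reflects the Chd4 messenger was not tested.

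**Figure D3:**
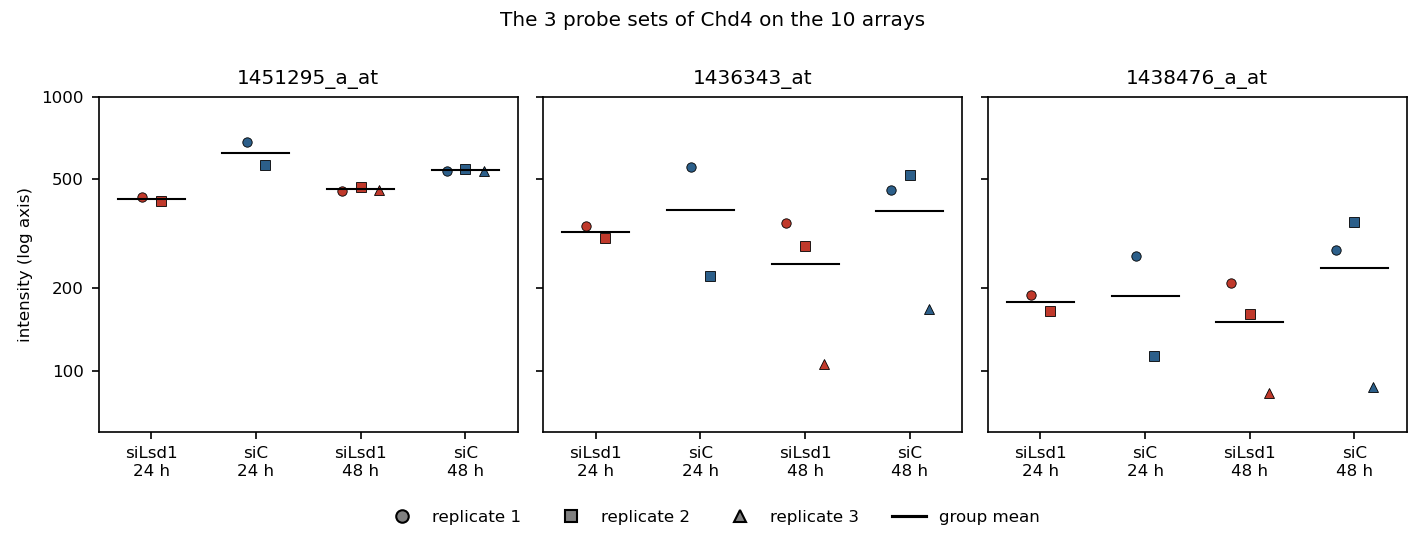
Intensity (log axis) of the 3 Chd4 probe sets on the 10 arrays, by siRNA and time (x axis), with a point shape for each replicate number and a bar for each group mean. In the panels of 1436343_at and 1438476_a_at, siC replicate 2 at 24 h and replicate 3 of both groups at 48 h lie low, while 1451295_a_at keeps the 3 arrays of each 48 h group close together.

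Chd3, which encodes the alternative ATPase Mi-2 alpha, was measured by 1 probe set. It had 247 and 295 units in siLsd1 cells at 24 h, against 421 and 368 units in siC cells, and 379, 346 and 236 units in siLsd1 cells at 48 h, against 396, 432 and 379 units in siC cells. The groups lay apart at both times, but at 48 h the highest siLsd1 array, at 378.7 units, was almost level with the lowest siC array, at 379.2 units, and the lowest value was that of the siLsd1 array that stands apart. Its changes were -0.54 at 24 h (SE 0.20, adjusted p = 0.148) and -0.35 at 48 h (SE 0.17, adjusted p = 0.171). Only the mean of both times passed the test, where Chd3 was 1.37-fold lower (-0.45, SE 0.13, 95% interval -0.74 to -0.16, adjusted p = 0.0333). This call was lost without siC replicate 1 (-0.40, adjusted p = 0.119) or 2 (-0.50, adjusted p = 0.0664) at 24 h and without siLsd1 replicate 1 (-0.39, adjusted p = 0.137) or 2 (-0.51, adjusted p = 0.0601) at 24 h. It was also lost without siC replicate 1 (-0.45, adjusted p = 0.0580), 2 (-0.42, adjusted p = 0.0768) or 3 (-0.47, adjusted p = 0.0543) at 48 h. Without siLsd1 replicate 3 at 48 h the mean change was -0.35 (adjusted p = 0.00443), with -0.54 at 24 h (adjusted p = 0.00452) and -0.15 at 48 h (adjusted p = 0.361).

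The scaffold genes did not pass the test in any siLsd1 comparison. MTA1 and MTA2 hold the deacetylases through their ELM2 and SANT domains, and each NuRD complex is built around a pair of MTA proteins. Mta1 had 1010.0 and 956 units in siLsd1 cells at 24 h, against 1083 and 1179.9 units in siC cells, and 1195, 1201 and 1112 units in siLsd1 cells at 48 h, against 1084, 1209.9 and 1202 units in siC cells. The groups lay apart at 24 h and overlapped at 48 h, and the mean change was -0.10 (95% interval -0.23 to 0.04, adjusted p = 0.265). Its second probe set, 1440113_at, was too dim to be tested, with at most 18.4 units on any array. Mta2 had 363 and 314 units in siLsd1 cells at 24 h, against 324 and 282 units in siC cells, and 286, 332 and 340.3 units in siLsd1 cells at 48 h, against 262, 290.2 and 229 units in siC cells. These groups overlapped at both times. The mean change of Mta2 was 0.23 (95% interval 0.02 to 0.44, adjusted p = 0.112), with an interval above 0 but an adjusted p that missed the threshold.

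Among the methyl-CpG binding subunits, Mbd2 was higher with siLsd1. MBD2 binds methylated CpG and brings NuRD to methylated promoters, while mammalian MBD3 has largely lost this selectivity. Mbd2 had 2190.0 and 2052 units in siLsd1 cells at 24 h, against 1793 and 1605 units in siC cells, and 1892, 1873 and 1848 units in siLsd1 cells at 48 h, against 1628, 1634 and 1597 units in siC cells. All siLsd1 arrays, also the one that stands apart, were above all siC arrays of their time. Mbd2 rose by 0.26 log2 units for the mean of both times (SE 0.05, 1.20-fold, limma adjusted p = 0.00612), a call that held without each of the 10 arrays in turn. At 24 h it rose by 0.32 (SE 0.08, 1.25-fold, adjusted p = 0.0438), and at 48 h the change was 0.21 (SE 0.06, adjusted p = 0.0580). The call at 24 h held only without siLsd1 replicate 3 of 48 h (adjusted p = 0.00381), and the 9 other omissions gave adjusted p-values of 0.0590 to 0.320, with changes of 0.24 to 0.40. Without that array Mbd2 was called at 48 h as well (0.22, adjusted p = 0.0258).

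The other Mbd2 probe set, 1425803_a_at, had 559 and 555 units in siLsd1 cells at 24 h, against 431 and 404 units in siC cells, and 578, 567 and 532 units in siLsd1 cells at 48 h, against 451, 513 and 468 units in siC cells. It rose too for the mean of both times (0.32, adjusted p over all probe sets = 0.0117). Mbd3 had 312 and 409 units in siLsd1 cells at 24 h, against 418 and 313 units in siC cells, and 283, 280.4 and 336 units in siLsd1 cells at 48 h, against 289, 292 and 225 units in siC cells. Here the groups overlapped at both times and the replicates of a group at 24 h were about 100 units apart. The mean change of Mbd3 was 0.07 (95% interval -0.21 to 0.35, adjusted p = 0.720), an interval that holds the value of Mbd2.

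On their brightest probe sets, the paralogs that bridge the MBD protein to the ATPase moved in opposite directions. Their other probe sets, given below, followed in part for Gatad2a and not for Gatad2b. Gatad2a, read by probe set 1451197_s_at, had 1177 and 1170.3 units in siLsd1 cells at 24 h, against 919 and 879.8 units in siC cells, and 922, 916 and 1152 units in siLsd1 cells at 48 h, against 760.1, 764 and 741 units in siC cells. Gatad2b, read by probe set 1437507_at, had 426 and 421 units in siLsd1 cells at 24 h, against 569.6 and 524 units in siC cells, and 531, 471 and 461 units in siLsd1 cells at 48 h, against 621, 635 and 582 units in siC cells. For both genes no siLsd1 array fell within the range of the siC arrays of its time. Gatad2a rose by 0.39 log2 units for the mean of both times (SE 0.07, 1.31-fold, adjusted p = 0.00600), and Gatad2b fell by 0.35 (SE 0.07, 1.27-fold lower, adjusted p = 0.00641). Both calls held without each of the 10 arrays in turn.

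At the single times the same changes lay nearer the threshold. At 24 h Gatad2a changed by 0.38 (SE 0.11, adjusted p = 0.0811) and Gatad2b by -0.37 (SE 0.10, adjusted p = 0.0718). At 48 h Gatad2a rose by 0.39 (SE 0.09, 1.31-fold, adjusted p = 0.0282) and Gatad2b fell by 0.33 (SE 0.09, 1.26-fold lower, adjusted p = 0.0345). The Gatad2a call at 48 h was lost without siLsd1 replicate 1 (adjusted p = 0.0542) or 2 (adjusted p = 0.0543) of 24 h, and without siC replicate 1 (adjusted p = 0.0753), 2 (adjusted p = 0.0911) or 3 (adjusted p = 0.0818) of 48 h. The Gatad2b call at 48 h held only without siLsd1 replicate 1 or 3 of that time, and the 8 other omissions gave adjusted p-values of 0.0543 to 0.128. Without siLsd1 replicate 3 of 48 h, the changes at 48 h were 0.28 for Gatad2a (adjusted p = 0.00505) and -0.29 for Gatad2b (adjusted p = 0.0233), and at 24 h both genes were called (adjusted p = 0.000898 and 0.00817).

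The upstream sequence of both bridging genes is shown because both were called for the mean of both times, in opposite directions on their brightest probe sets. The RefSeq promoter table of GRCm38.p6 held 7 of the 10 genes, in 10 windows, and the 250 bases before the most upstream listed start of each are printed, 5′ to 3′ on the gene's strand, with CCAAT and its reverse complement ATTGG in capitals. The Gatad2a window is chr8:69996385-69996634 on the minus strand and the Gatad2b window is chr3:90292931-90293180 on the plus strand.
Gatad2a: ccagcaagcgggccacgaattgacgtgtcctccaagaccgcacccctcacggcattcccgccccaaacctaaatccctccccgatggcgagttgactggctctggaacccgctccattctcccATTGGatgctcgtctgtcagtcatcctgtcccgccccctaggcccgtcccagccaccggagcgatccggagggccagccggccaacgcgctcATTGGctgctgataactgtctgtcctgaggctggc
Gatad2b: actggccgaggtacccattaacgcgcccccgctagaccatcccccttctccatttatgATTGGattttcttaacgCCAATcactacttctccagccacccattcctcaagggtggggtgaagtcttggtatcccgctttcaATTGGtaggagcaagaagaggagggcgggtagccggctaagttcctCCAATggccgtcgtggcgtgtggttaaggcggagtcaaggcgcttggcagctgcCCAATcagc
On both strands together the Gatad2a window held 2 CCAAT and 2 GGGCGG matches, and the Gatad2b window held 5 CCAAT matches and 1 GGGCGG match. Of all 32851 promoter windows of this length, 33.9% held at least 1 CCAAT, 10.1% at least 2 and 0.213% at least 5, and GGGCGG was in 32.7%. The motif TATAAA, present in 12.4% of all windows, was in neither. No CCAAT match in these windows overlapped a GGGCGG match. The CG dinucleotide occurred 18 times in the Gatad2a window and 13 times in the Gatad2b window, against a median of 6 over all windows. The 10 windows of the subunit genes held 12 to 39 CG. The second listed window of Gatad2a, chr8:69974384-69974633 on the minus strand, held 0 CCAAT and 3 GGGCGG matches and 20 CG. That of Gatad2b, chr3:90293836-90294085 on the plus strand, held 1 CCAAT and 1 GGGCGG match and 14 CG. CCAAT was found in 5 of the 10 windows of the subunit genes, in 4 of 7 genes. The arrays do not show which start is used in these cells.

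The other probe sets followed the brightest in part for Gatad2a and not for Gatad2b. Gatad2a probe set 1423992_at had 1090.1 and 1097 units in siLsd1 cells at 24 h, against 843 and 834 units in siC cells, and 681, 770.3 and 978 units in siLsd1 cells at 48 h, against 632, 575 and 540.2 units in siC cells. It rose for the mean of both times (0.42, adjusted p over all probe sets = 0.0186), while the 3 dimmer probe sets of the gene changed by -0.16, 0.02 and -0.10 and were not called. The brightest probe set of Gatad2b was the only one of its 5 called lower. Probe sets 1437474_at, 1425075_at and 1432979_at changed by -0.05, -0.03 and 0.06 and were not called. The dim 1447026_at rose for the mean of both times (0.64, adjusted p = 0.0403), with 24.5 and 27.2 units in siLsd1 cells at 24 h, against 11.9 and 11.1 units in siC cells, and 36.5, 36.7 and 23 units in siLsd1 cells at 48 h, against 28.3, 28.8 and 29.9 units in siC cells. With a gene's probe sets averaged, Gatad2a was no longer called (0.11, adjusted p = 0.274) and the sign of Gatad2b turned (0.05, adjusted p = 0.803). That average gives dim and bright probe sets equal weight, and among those of Gatad2b the dim 1447026_at changed the most.

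The deacetylase genes did not pass the test with siLsd1. HDAC1 and HDAC2 are shared by NuRD, SIN3 and CoREST complexes. Hdac1 had 2096 and 1997 units in siLsd1 cells at 24 h, against 2083 and 2206 units in siC cells, and 1709, 1847 and 1717 units in siLsd1 cells at 48 h, against 1683, 1821 and 1782 units in siC cells. The groups overlapped at both times, and the mean change was -0.04 (95% interval -0.15 to 0.08, adjusted p = 0.664). Hdac2 had 1281 and 1382 units in siLsd1 cells at 24 h, against 1583 and 1629.6 units in siC cells, and 1257, 1248 and 1399 units in siLsd1 cells at 48 h, against 1241, 1402 and 1465 units in siC cells. Its groups lay apart at 24 h (-0.27, adjusted p = 0.148) and overlapped at 48 h (-0.07, adjusted p = 0.596). The mean change of Hdac2 was -0.17 (95% interval -0.32 to -0.03, adjusted p = 0.0845). It was called without siC replicate 1 of 48 h (adjusted p = 0.0433) and without siLsd1 replicate 3 of 48 h (-0.20, adjusted p = 0.0145). Probe set 1449080_at of Hdac2 changed by -0.16 for the mean (adjusted p = 0.178) and 1439704_at by -0.05 (adjusted p = 0.851).

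Over all 23 probe sets of the 10 genes that were bright enough to be tested, 1 was called at 24 h, where 2.65% of all 26208 probe sets tested were, 3 at 48 h, where 8.08% were, and 8 for the mean of both times, where 16.7% were. The 8 were 2 of Mbd2, 2 of Gatad2a and the dim one of Gatad2b, which were higher, and the brightest probe sets of Chd3, Chd4 and Gatad2b, which were lower. For the difference between the times 0 of 23 were called by limma, and 2 had an unadjusted p under 0.05. The counts of 1, 3 and 8 became 9, 5 and 10 without siLsd1 replicate 3 of 48 h, where 17.6%, 11.9% and 25.2% of all probe sets were called.

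**Figure D4:**
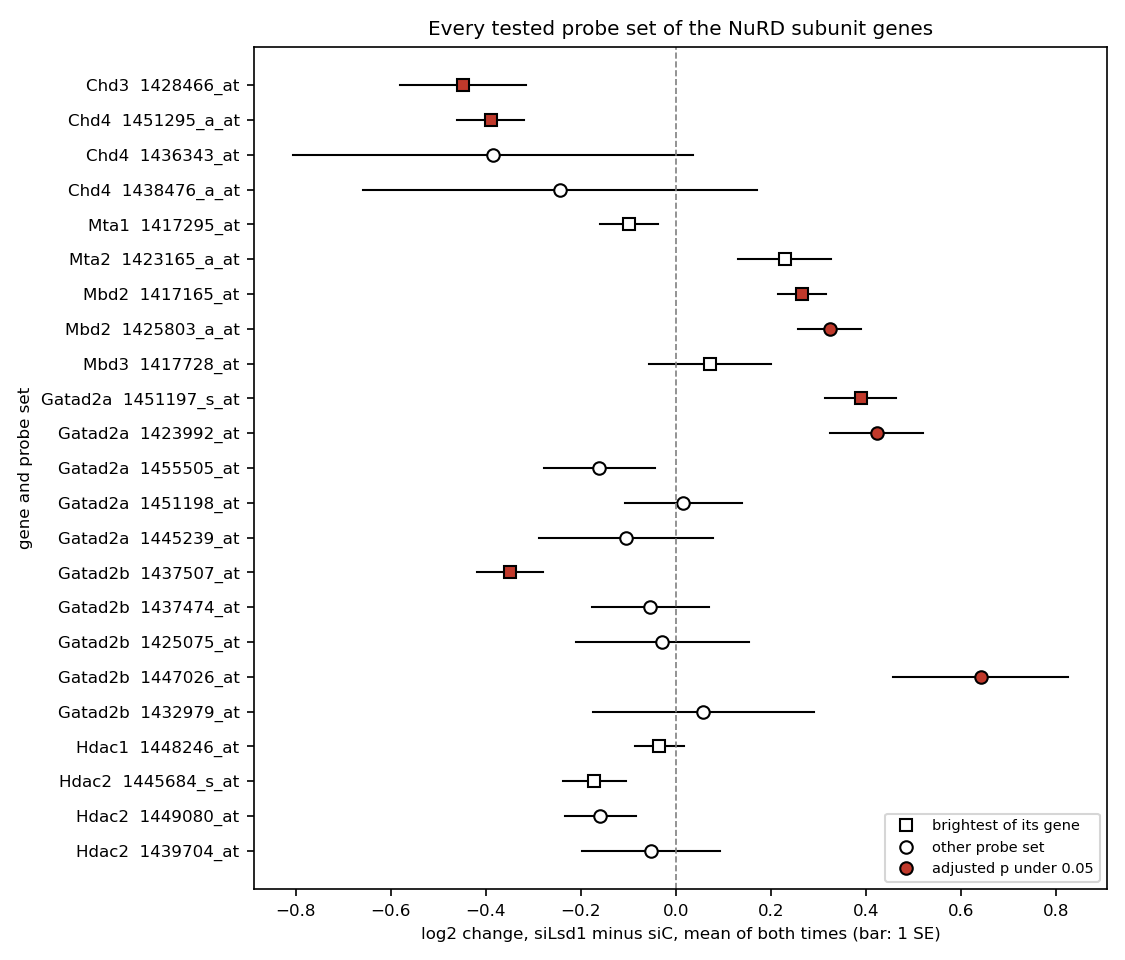
Log2 change with siLsd1 relative to siC for the mean of both times (x axis, bars are 1 SE) of each of the 23 tested probe sets (y axis). Squares mark the brightest probe set of a gene and filled points an adjusted p under 0.05, of which there are 8. Both Mbd2 probe sets lie above 0, whereas the probe sets of Gatad2a and Gatad2b lie on both sides.

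Whether alternative subunits changed unequally was asked for the 5 paralog pairs, through the log2 intensity of the first gene minus that of the second on each array. The size of such a difference depends on the probes, and only its change with the siRNA is read. Gatad2a minus Gatad2b was 1.47 and 1.48 in siLsd1 cells at 24 h, against 0.69 and 0.75 in siC cells, and 0.80, 0.96 and 1.32 in siLsd1 cells at 48 h, against 0.29, 0.27 and 0.35 in siC cells. Every siLsd1 array was higher than every siC array of its time, by 0.74 log2 units for the mean of both times (0.75 at 24 h and 0.72 at 48 h). The exact two-sided permutation p, with labels exchanged within each time, was 0.01667, the smallest that 120 relabellings can give, and 0.0833 after adjustment over the 5 pairs. Mta1 minus Mta2 changed by -0.33 (exact p = 0.05, adjusted p = 0.125) and Hdac1 minus Hdac2 by 0.14 (exact p = 0.0833, adjusted p = 0.139). Mbd2 minus Mbd3 changed by 0.19 (exact p = 0.35, adjusted p = 0.438), and Chd3 minus Chd4 by -0.06 (exact p = 0.7, adjusted p = 0.7). No pair passed 0.05 after adjustment, and a lone pair could not, since the smallest exact p of 0.01667 becomes 0.0833 over 5 pairs. After quantile normalization the GATAD2 and MTA pairs did (adjusted p = 0.0417 each), which takes 2 pairs at the smallest exact p. Their differences were then 0.71 and -0.39, against 0.74 and -0.33. With a gene's probe sets averaged the GATAD2 difference was 0.06 (adjusted p = 0.717).

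**Figure D5:**
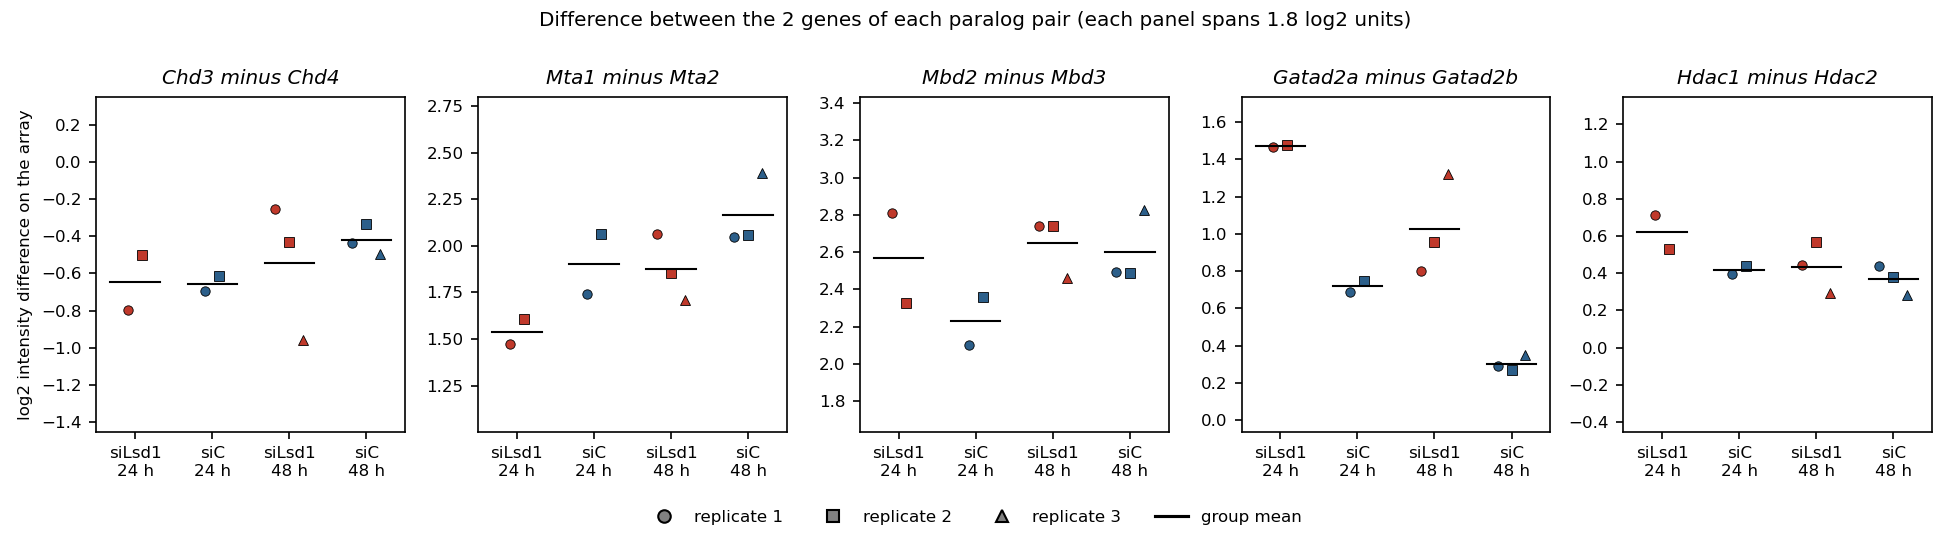
Log2 intensity of the first gene minus the second (y axis, 1.8 log2 units in every panel) on each array for the 5 paralog pairs, by siRNA and time (x axis). Points are arrays with a shape for each replicate number and bars are group means. In the Gatad2a minus Gatad2b panel the siLsd1 means are 1.47 at 24 h and 1.03 at 48 h, above siC means of 0.72 and 0.30.

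In the control cells, 48 h was set against 24 h. These groups differ in passage (21 and 19) as well as in time, and the 2 cannot be told apart. The arrays did not overlap for 6 of 10 genes, where 55.6% of all genes did not. Of the 10 genes 1 was called, Hdac1, where 24.2% of all genes were. Hdac1 had 1683, 1821 and 1782 units in siC cells at 48 h, against 2083 and 2206 units in siC cells at 24 h, with no overlap. It fell by 0.28 log2 units (SE 0.07, 1.22-fold lower, adjusted p = 0.0180). The call was lost without siC replicate 1 (-0.32, adjusted p = 0.0628) or 2 (-0.24, adjusted p = 0.138) of 24 h and without siC replicate 1 of 48 h (-0.25, adjusted p = 0.0506). Hdac2 changed by -0.23 (adjusted p = 0.0945), Mbd3 by -0.44 (adjusted p = 0.0995) and Gatad2a by -0.25 (adjusted p = 0.109). Without siLsd1 replicate 3 of 48 h, which enters this comparison only through the shared estimate of the spread, these 3 were called as well (adjusted p = 0.0227, 0.0421 and 0.00329), where 40.4% of all genes were. The median log2 change of the 10 genes was -0.21, against 0.01 over all genes. Probe set 1423992_at of Gatad2a was lower at 48 h (-0.53, adjusted p over all probe sets = 0.0233) and 1447026_at of Gatad2b was higher (1.34, adjusted p = 0.00615). With Hdac1 these made 3 of 23 probe sets, where 20.9% of all probe sets were called.

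Of the other core NuRD genes, none of the 4 tested was called by limma on its brightest probe set in any comparison of siLsd1 with siC, and 0 had an unadjusted p under 0.05 there. They were Mta3, a further scaffold, Rbbp4 and Rbbp7, the histone-binding WD40 proteins, and Cdk2ap1, a small subunit also known as DOC-1. Their changes for the mean of both times were -0.04, 0.03, 0.01 and -0.07, with adjusted p-values of 0.800, 0.693, 0.867 and 0.292. Of their dimmer probe sets none was called in these comparisons either, and 3 had an unadjusted p under 0.05 for the mean: 1421402_at of Mta3 (-0.24, adjusted p over all probe sets = 0.0660), 1456260_at of Rbbp4 (-0.36, adjusted p = 0.112) and 1456314_x_at of Cdk2ap1 (-0.12, adjusted p = 0.0824). Chd5, the ATPase known from neurons, was among the dimmest 25% of genes and was not tested. In siC cells at 48 h, relative to 24 h, Rbbp7 fell by 0.28 (SE 0.07, adjusted p = 0.0133), a call lost without siC replicate 2 of 24 h (-0.21, adjusted p = 0.134). Probe set 1456260_at of Rbbp4 was higher there (2.05, adjusted p over all probe sets = 0.000203).

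Further genes were read from lists of related complexes, as background to the subunits. At 24 h 0 of their 39 genes tested were called by limma, where 5.39% of all genes were. Before adjustment 8 had a p under 0.05, against 3069 of all 13644 genes. Of 12 genes tested of the SIN3 complex, which shares Hdac1 and Hdac2 with NuRD, 1 rose and 1 fell at 48 h, where 12.7% of all genes were called, and 1 rose and 2 fell for the mean of both times, where 23.8% were. Sap30, an adaptor of that complex, had 670.4 and 764 units in siLsd1 cells at 24 h, against 525 and 513 units in siC cells, and 337, 281 and 442 units in siLsd1 cells at 48 h, against 157, 155 and 166 units in siC cells. It rose by 1.12 log2 units at 48 h (SE 0.15, 2.17-fold, adjusted p = 0.00263), and this call held without each of the 10 arrays in turn. Suds3, another SIN3 subunit, fell at 48 h (-0.46, adjusted p = 0.0193) and for the mean (-0.43, adjusted p = 0.00501). The call at 48 h was lost without siC replicate 1, 2 or 3 of that time (adjusted p = 0.0529, 0.0837 and 0.0635). Ing1, which reads methylated histone H3, fell for the mean only (-0.29, adjusted p = 0.0262), and 6 of 10 omissions of an array ended that call (adjusted p = 0.0595 to 0.108).

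Of 15 genes tested among factors known to bind or recruit NuRD, 1 rose and 1 fell at 48 h, and likewise for the mean, against the same 12.7% and 23.8% of all genes. Pwwp2b, whose product binds the deacetylase part of NuRD, had 169, 165 and 191 units in siLsd1 cells at 48 h, against 115, 119.9 and 111 units in siC cells. It rose by 0.60 (SE 0.10, 1.52-fold, adjusted p = 0.00740), which held without each of the 10 arrays in turn. Zeb1, a zinc finger repressor, had 894, 938 and 513 units in siLsd1 cells at 48 h, against 1161, 1259 and 1288 units in siC cells. It fell by 0.71 (SE 0.19, adjusted p = 0.0397), and by 0.43 without siLsd1 replicate 3 (adjusted p = 0.00164). That call was lost in 7 of 10 omissions of an array (adjusted p = 0.0633 to 0.120).

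Of 6 other CHD remodellers tested, 2 fell at 48 h, where 6.67% of all genes were called lower, and 2 for the mean, where 13.7% were. Chd6 changed by -0.76 at 48 h (SE 0.18, adjusted p = 0.0260) and Chd8 by -0.33 (SE 0.09, adjusted p = 0.0457). Without siLsd1 replicate 3 of 48 h these changes were -0.52 (adjusted p = 0.00274) and -0.25 (adjusted p = 0.0377). The Chd6 call was lost without siC replicate 1, 2 or 3 of 48 h (adjusted p = 0.0628, 0.0893 and 0.0816), and the Chd8 call in 8 of 10 omissions (adjusted p = 0.0559 to 0.151). Of 4 other genes of the methyl-CpG binding family tested, 1 fell for the mean of both times (13.7% of all genes), Mbd4, a DNA glycosylase (-0.46, SE 0.11, adjusted p = 0.0133). It was not called without siC replicate 1 (adjusted p = 0.0636) or siLsd1 replicate 2 (adjusted p = 0.0595) of 24 h. The other class I deacetylases on the array, 2 genes, were not called at either time, where 5.39% and 12.7% of all genes were. Of the 2 genes 0 had an unadjusted p under 0.05, against 3069 and 4327 of all 13644 genes at 24 h and 48 h. With a gene's probe sets averaged, Chd6, Chd8 and Zeb1 were not called at 48 h (adjusted p = 0.562, 0.294 and 0.247) nor for the mean (adjusted p = 0.748, 0.305 and 0.581), where Ing1 was not called either (adjusted p = 0.991).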

How the data were processed

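Total RNA of 3T3-L1 cells was labelled with biotin and hybridised to 10 Affymetrix arrays, per the labels' protocols. The authors deposited intensity values per probe set on a linear scale. The summary method and any normalization between arrays were not given in the sources used here. Groups come from the siRNA and time of each title.

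The log2 of the deposited intensity was taken without an added constant, since no value was 0 or below, and without further normalization. The platform annotation named the probe sets: 34945 carried 1 symbol, 932 several and 9160 none. The brightest probe set stood for a gene, and the dimmest 25% of genes (4549, with a mean of up to 18.4 units) were left out. Group means of all 10 arrays were fitted with limma 3.58.1 in R 4.3.3 (lmFit, eBayes with intensity trend, 6 residual degrees of freedom), with Benjamini-Hochberg adjustment within each of 5 comparisons. The same model was fitted to all 26208 probe sets with a single symbol that were bright enough. Paralog pairs were compared by exact permutation tests (Python 3.11.15). The number of arrays limits the precision.

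The members, lists and tests were chosen with earlier results of these data known. Named genes are the 10 subunits, Kdm1a, 5 other core subunits and, from each further list, up to 4 called genes with the largest fold in each comparison of siLsd1 with siC. Promoter sequences are those of RefSeq for GRCm38.p6. Alternatives covered the choice of probe set, filter, normalization, array weights, trend, added constant, arrays fitted, replicate block and each array left out.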

Additional observations from a re-analysis of the deposited data

How the results depend on the processing

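The counts of subunit genes called at a single time moved with the processing, and the count for the mean of both times moved less. Groups hold 2 or 3 arrays, which limits what can be called. At 24 h, against 2 genes, 1 was called with all probe sets tested, with a gene's probe sets averaged, with no filter on dim genes, after quantile normalization, with arrays centred on the median, with no intensity trend and with siLsd1 replicates 1 and 2 of 48 h averaged, where 2.65% to 5.75% of all genes or probe sets were called, against 5.39% before. With array weights 7 were called and with only the arrays compared 6, where 26.2% and 23.3% of all genes were. At 48 h, against 2 genes and 12.7% of all, 0 were called with probe sets averaged, with no intensity trend and with only the arrays compared (6.95%, 7.37% and 1.83% of all genes), 1 with centred arrays (12.9%) and 6 with array weights (36.1%). For the mean of both times, against 5 genes, 2 were called with probe sets averaged (15.6% of all genes, against 23.8%), where Gatad2b turned to 0.053. In siC cells over time, against 1 gene, 3 were called with array weights and 2 with only the arrays compared (45.4% and 34.6% of all genes, against 24.2%), and Rbbp4 turned to 0.43 with probe sets averaged. Quantile normalization gave 2 paralog pairs, against 0, where a lone pair could not pass. Leaving out each array of 48 h in turn gave 1 to 6 genes at 24 h (2.62% to 25.5% of all genes), 0 to 3 at 48 h (2.8% to 18.1%) and 4 to 6 for the mean (15.7% to 33.8%). The same omissions gave 0 for the difference of the times (0% to 1.47%), 0 to 4 over time in siC cells (15.5% to 40.4%) and 0 to 2 paralog pairs. Leaving out an array of 24 h leaves 1 in its group, and such counts are not given, though calls at 24 h were lost there. Without siLsd1 replicate 3 of 48 h, an alternative chosen after seeing the data for the probe sets, 9, 5 and 5 probe sets were called at 24 h, at 48 h and over time in siC cells. Of all probe sets 17.6%, 11.9% and 34.9% were called there. The cause of these shifts was not tested. Of the single values of the 10 genes under these alternatives, array omissions aside, 108 kept their sign and side of the threshold at 24 h, 3 uncalled values turned their sign, 10 lost the call and 9 gained it. At 48 h these numbers were 103, 3, 9 and 5. For the mean they were 103, 2, 4 and 1, where 1 of the 4 lost calls (Gatad2b) also turned its sign.

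Same-numbered arrays gave no sign of pairing: their deviations correlated at -0.24 at 24 h and at -0.23, 0.05 and -0.10 at 48 h. Differently numbered arrays correlated at 0.24 at 24 h, which groups of 2 arrays fix as the opposite value, and at -0.13 to 0.20 at 48 h. A pairing in another order was not tested at 48 h. With the replicate number as a block, 0, 0, 5, 0 and 2 genes were called at 24 h, at 48 h, for the mean, for the difference and over time in siC cells, where 1.09%, 4.87%, 15.3%, 0% and 27.1% of all genes were. Crossing the numbers at 24 h, chosen after seeing the data, left 1 gene called at that time, where 3.37% of all genes were. Fitting only the arrays compared gives no value for the mean or the difference.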

Other observations

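Rbbp4, whose brightest probe set changed by -0.11 in siC cells between 48 h and 24 h (adjusted p = 0.338), has a dimmer probe set, 1456260_at, that behaved otherwise. It had 171, 216 and 228 units in siC cells at 48 h, against 43.4 and 55.3 units in siC cells at 24 h, and was higher by 2.05 log2 units (adjusted p over all probe sets = 0.000203). In siLsd1 cells it had 143, 169.5 and 114 units at 48 h and 44.9 and 41.5 units at 24 h. Time and passage cannot be told apart in this comparison.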
